A study of Homo sapiens with 3 samples.

Results

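This account compares 2 of the 3 arrays of the series, the array of KYSE150 cells given LOXL2 delta72 and the array of cells given the empty vector. KYSE150 is an established cell line from a human oesophageal squamous carcinoma. The control cells received vector alone and the others received the expression plasmid pcDNA3.1 carrying LOXL2 delta72. Total RNA of both was taken 48 h after transfection and labelled for an Affymetrix 3' expression array. The labels do not say what sets delta72 apart from the wild-type form, how large a share of cells took up plasmid, or how many cultures were pooled. The third array, of cells given wild-type LOXL2 in the same plasmid (WT), helped to choose and filter the probe sets and its values are set beside the others. The delta72 and WT differences share the control array, so their likeness is no independent support. With 1 array a condition there is no replicate spread, no test was made, and "higher" and "lower" describe these arrays.

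Each gene was read from its brightest single-gene probe set, a group of short probes for 1 transcript. A gene was kept when the mean of that probe set over the 3 arrays reached log2 5.27, which left 12232 of 18132 genes. Values are the deposited log2 intensities, and a difference is delta72 minus control on the log2 scale, so that 1 unit is 2-fold. The only error available is the standard deviation (SD) of the difference over the probe sets of 1 gene, which covers probes and not cultures. Pooled over the 7163 genes with more than 1 probe set above the filter it was 0.15, or 0.14 without LOXL2. The genes just under the filter were GPHB5 and COL27A1 and those just over it were LCE2B and ECSCR, all with means of 5.27 or 5.28.

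LOXL2 is a secreted, copper-dependent amine oxidase that folds and is glycosylated in the endoplasmic reticulum (ER) before it crosslinks collagen and elastin outside the cell. Proteins that enter the ER are folded by chaperones such as HSPA5 (BiP) and by protein disulphide isomerases. When unfolded proteins build up, the sensors ATF6, ERN1 (IRE1) and EIF2AK3 (PERK) start the unfolded protein response, which raises chaperones, degradation from the ER and, through ATF4, the factor DDIT3 (CHOP). Squamous cells in turn are known by basal keratins, desmosomes and the factors that keep them.

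The transfected gene stood far above control on its most responsive probe sets. The brightest LOXL2 probe set read 7.46 on the control array and 14.06 on the delta72 array, and 14.05 on the WT array. Its 4 probe sets differed from control by 6.60, 5.16, 2.64 and -0.14 (SD 2.96). Thus 3 of 4 were far higher with delta72, and the fourth, at 8.81 on the control array and 8.66 on the delta72 array, was not. Probe positions were not used here, so none of them shows which form was made. The squamous identity of the cells could be read from 5 of the 8 marker genes listed. KRT5, KRT14, SFN, PKP1 and DSG3 all lay above the filter, between 7.37 and 11.70 on the control array. Markers of columnar epithelium (1 of 5 measured above the filter), fibroblasts (1 of 6), endothelium (3 of 5) and leukocytes (2 of 5) lay mostly below it or close to it, apart from the lysosomal protein gene CD68 at 8.97, while the leukocyte marker PTPRC read 2.83.

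The arrays were close to each other over most genes. The difference had a median of 0 and an SD of 0.23, 70.3% of genes lay within 0.2 of control, and the 5th and 95th percentiles were -0.32 and 0.38. In all, 6085 genes (49.7%) were higher and 6097 (49.8%) lower by any amount. At 1.5-fold, 157 genes (1.28%) were higher and 61 (0.499%) lower, and at 2-fold 15 genes (0.123%) were higher and 2 (0.0164%) lower. Higher genes therefore made up 72.0% of those past 1.5-fold, or 68.3% with no filter. The filter used the mean of 3 arrays, and 8 of the 157 higher genes read under the filter value on the control array, against 0 of the 61 lower ones. When each array was shifted to the same median over the kept genes, a move of -0.03 in the difference, 123 genes were higher and 77 lower, and the share was 61.5%. Several control probe sets also moved. The spiked hybridisation controls BioB, BioC and BioD were lower on the delta72 array on 14 of 14 probe sets, by -0.32 to -0.11, background probe sets differed by -0.17 to 0.05, and 18S ribosomal RNA probe sets by -0.38 to -0.29. The 3' minus 5' difference of ACTB, a sign of RNA length, was 1.26 on the control array and 1.32 on the delta72 array, and that of GAPDH was within 0.01 of 0 on both. The part of these shifts in the gene differences was not tested.

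Past the 2-fold limit, 8 of the 15 higher genes rested on 1 probe set above the filter. Of the other 7, 6 had every such probe set at least 1.5-fold higher, and LOXL2 had 1 that was not. Of the 157 genes at 1.5-fold, 96 had several probe sets above the filter, of which 82 were higher throughout, 29 were past 1.5-fold throughout, and 14 were mixed. Of the 61 lower genes 32 had several, of which 29 were lower throughout, 7 were past 1.5-fold throughout, and 3 were mixed. Among genes with 3 or more probe sets, 14 had all of them past 1.5-fold the same way. The 10 higher ones were HSPA5, HERPUD1, JUN, PDIA4, MIR22HG, ST7L, PNO1, ZNF571, CCDC112 and ARRDC3, and the 4 lower ones were PHLDA1, ID1, MSMO1 and DUSP6. When the genes were split into 5 equal groups by their control level, 17 genes of the brightest group and 37 of the dimmest were past 1.5-fold higher, and 14 and 6 were past it lower. The control value is also the one subtracted, so this split by itself favours higher differences in dim genes and lower ones in bright genes. How much that added to these counts was not tested.

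**Figure D1:**
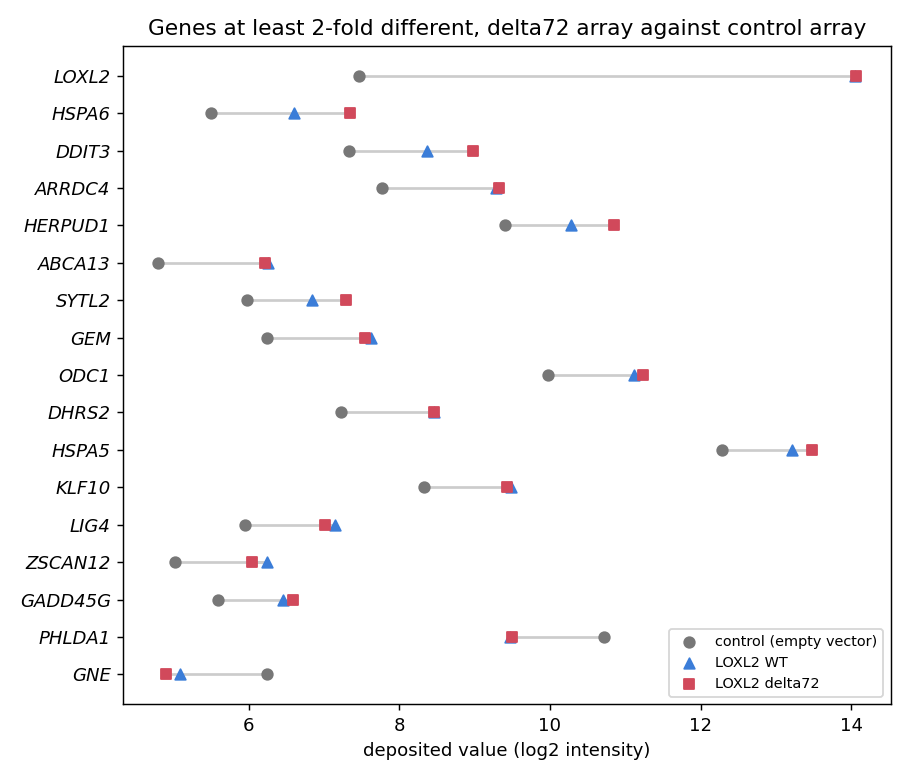
Deposited log2 intensity (horizontal axis) of the 17 genes that differed at least 2-fold between the delta72 and control arrays, 1 row a gene, with circles for the control array, squares for delta72 and triangles for WT (1 array each, no error bars). LOXL2 spans 7.46 to 14.06, the squares lie to the right of the circles in 15 genes, and they lie to the left in PHLDA1 and GNE.

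Genes for chaperones and folding enzymes of the ER were higher on the delta72 array. Of the 33 genes listed, 32 passed the filter, and 28 of these were higher and 4 lower, with a median of 0.31 against 0 over all genes. The list median was 0.21 with the median over probe sets and 0.28 after the shift to a common median. At least 1.5-fold higher were 9 of the 32 (28.1%), against 1.28% of all genes, and 0 were that much lower. HSPA5, the Hsp70 of the ER lumen and the sensor partner of the unfolded protein response, read 12.28 on the control array, 13.22 with WT and 13.47 with delta72, a difference of 1.19 (2.28-fold). Its other probe sets above the filter were dimmer on the control array. Those at 11.15, 9.20, 8.72, 8.18 and 7.04 on the control array read 12.86, 11.15, 10.72, 10.08 and 9.49 with delta72, differences of 1.71 to 2.45 (SD 0.41 over all 6). The brightest HSPA5 probe set thus gave the smallest difference of the 6 and the dimmest gave the largest, with a median of 1.92. Why the probe sets differed was not tested.

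The partners of HSPA5 ranged widely. DNAJC3 (p58IPK) read 7.30 on the control array and 8.20 with delta72, a difference of 0.89, and DNAJB11 (ERdj3) read 9.71 and 10.60, also 0.89. The nucleotide exchange factor gene HYOU1 read 8.81 and 9.61. Its 6 probe sets above the filter did not move alike, with differences from -0.08 to 0.88 (SD 0.39) and a median over all its probe sets of 0.17. SDF2L1, a partner of the ERdj proteins, differed by 0.79, DNAJB9 (ERdj4) by 0.73 and DNAJC1 (ERdj1) by 0.65, whereas the exchange factor gene SIL1 and the co-chaperone gene DNAJC10 (ERdj5) were near control, at 0.04 and 0.07. Among the other ER proteins, the disulphide isomerase PDIA4 read 11.48 and 12.31, a difference of 0.83 (SD 0.06 over 3 probe sets), and the secreted survival factor MANF 10.80 and 11.55. Apart from SIL1 and DNAJC10, all of these genes lay between control and delta72 on the WT array, with PDIA4 at 11.78.

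Other chaperones stayed below 1.5-fold. CRELD2, a disulphide isomerase induced by ER stress, differed by 0.57. HSP90B1 (GRP94) differed by 0.53 (SD 0.14 over 7 probe sets) and the lectin chaperone CANX (calnexin) by 0.46 (SD 0.07 over 9), both from control levels above 12. P4HB, the classical disulphide isomerase, differed by 0.31 (SD 0.04 over 6) and was at 0.01 with WT, while PDIA6 was at 0.19 and PDIA3 at 0.23. CALR (calreticulin) was at 0.16 from a dim probe set. ERO1A, which reoxidises the isomerases, was at 0.32 with delta72 and at -0.39 with WT. The members below control were TXNDC12 at -0.41, ERP29 at -0.20, PDIA5 at -0.20 and CNPY3 at -0.09.

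**Figure D2:**
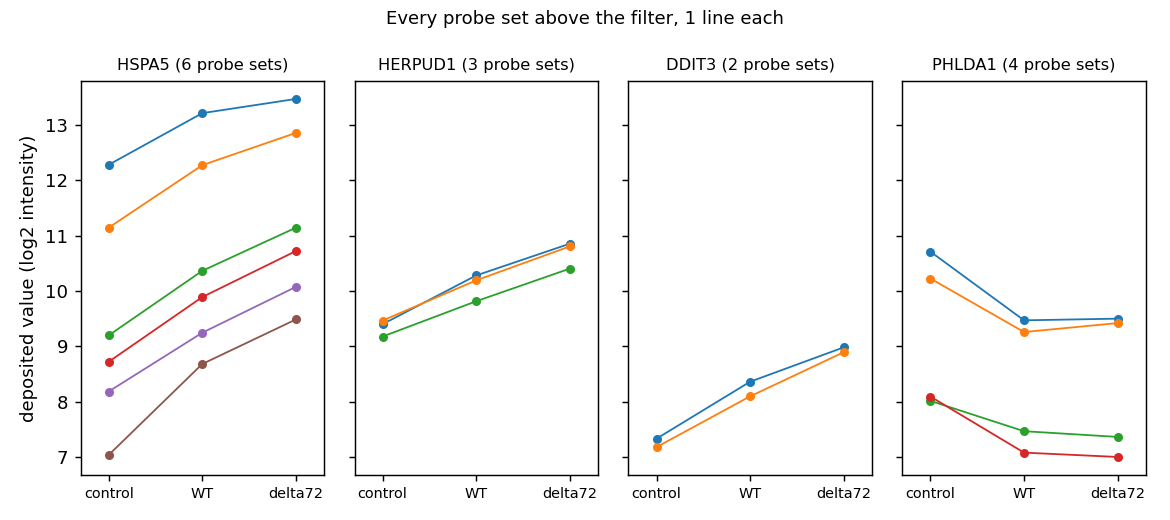
Deposited log2 intensity (vertical axis) on the control, WT and delta72 arrays for every probe set above the filter of HSPA5 (6), HERPUD1 (3), DDIT3 (2) and PHLDA1 (4), 1 line a probe set. All lines of HSPA5, HERPUD1 and DDIT3 climb from control to WT to delta72, and all 4 lines of PHLDA1 start highest at the control.

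The promoters of HSPA5, HERPUD1, HYOU1 and SDF2L1 are shown because these are the genes at least 1.5-fold higher that hold an exact ER stress element. DNAJC3, DNAJB11 and PDIA4, which differed by as much as HYOU1 or more, held neither element searched for. RefSeq promoters of assembly GRCh38.p14 were available for 9954 of the 12232 genes, each 250 bases before and 50 bases after a transcript start, with several starts for 2841 genes. The ER stress element (ERSE), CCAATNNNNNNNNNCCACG, is bound by ATF6 with the factor NF-Y, and the related ERSE-II is ATTGGNCCACG. Both strands were searched for exact matches. The 250 bases before the start are printed 5' to 3' on the gene's strand, with capitals for ERSE in HSPA5 (chr9:125241344-125241593, minus strand), for ERSE-II in SDF2L1 (chr22:21642052-21642301, plus strand), for ERSE-II and the amino acid response element TGATGNAA in HERPUD1 (chr16:56931892-56932141, plus strand), and for ERSE-II and the UPRE core TGACGTGG, a site of XBP1 and ATF6, which overlap at one place, in HYOU1 (chr11:119057206-119057455, minus strand).
HSPA5: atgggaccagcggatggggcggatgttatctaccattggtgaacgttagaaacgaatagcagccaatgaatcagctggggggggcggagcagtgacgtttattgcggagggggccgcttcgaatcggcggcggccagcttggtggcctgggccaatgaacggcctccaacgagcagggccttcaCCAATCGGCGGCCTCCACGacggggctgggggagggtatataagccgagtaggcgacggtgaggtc
HERPUD1: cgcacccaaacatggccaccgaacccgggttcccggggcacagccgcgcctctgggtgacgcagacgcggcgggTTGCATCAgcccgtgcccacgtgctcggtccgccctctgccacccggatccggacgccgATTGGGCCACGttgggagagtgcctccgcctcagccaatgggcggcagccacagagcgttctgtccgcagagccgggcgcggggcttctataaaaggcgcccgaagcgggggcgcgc
HYOU1: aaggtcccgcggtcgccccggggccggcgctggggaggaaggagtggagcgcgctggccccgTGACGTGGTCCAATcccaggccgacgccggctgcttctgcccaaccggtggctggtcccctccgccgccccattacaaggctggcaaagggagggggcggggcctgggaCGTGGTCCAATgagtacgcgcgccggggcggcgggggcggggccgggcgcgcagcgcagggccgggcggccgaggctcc
SDF2L1: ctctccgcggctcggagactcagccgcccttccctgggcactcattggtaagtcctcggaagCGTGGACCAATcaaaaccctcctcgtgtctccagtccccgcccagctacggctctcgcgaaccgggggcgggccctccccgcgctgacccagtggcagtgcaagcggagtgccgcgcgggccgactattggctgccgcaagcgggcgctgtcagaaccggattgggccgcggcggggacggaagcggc

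The element in HSPA5 starts 66 bases before the transcript start, that in HERPUD1 117, and that in SDF2L1 188. HYOU1 holds ERSE-II at 2 places. Exact ERSE was found in 16 genes (0.161% of the 9954) and exact ERSE-II in 15 (0.151%), so these letters are rare. Among the 133 genes with a promoter that were at least 1.5-fold higher, ERSE was in 1, HSPA5, and ERSE-II in 3, HERPUD1, HYOU1 and SDF2L1, and among the 43 lower genes both were in 0. Of 70 genes from the lists of ER chaperones, ER-associated degradation and stress sensors that had a promoter, 11 held either element, and all 11 were higher, with a median of 0.53. Beside the 4 printed, these were CRELD2, HSP90B1, CANX, XBP1 at 0.28, ERO1B at 0.21, PDIA6 and CALR. The members of these lists were mostly higher as a whole, at 28 of 32, 22 of 27 and 14 of 21 above the filter. Members without an element were not counted apart. Over all genes 31 held either element, these 11 among them, 19 of the 31 were higher, and the median was 0.16. The median was 0.25 over holders of ERSE and -0.04 over holders of ERSE-II. Outside the ER lists the holders ranged from SYNPO at -0.38 and NUCB1 at -0.26 to SERP1 at 0.31 and FICD, which modifies HSPA5, at 0.43. A match describes the sequence and does not show that a factor bound it.

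**Figure D3:**
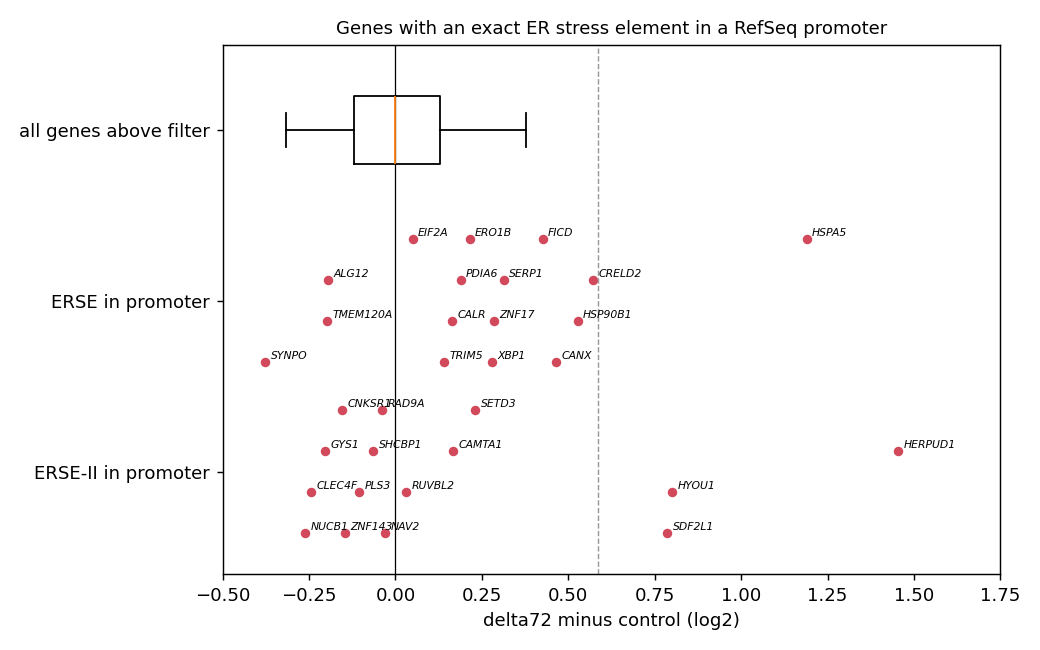
Delta72 minus control difference (log2, horizontal axis) of each gene with an exact ERSE (16 genes) or ERSE-II (15 genes) in a RefSeq promoter, 1 labelled point a gene, vertical scatter within a row has no meaning. The box shows all genes above the filter without LOXL2 (median, quartiles, whiskers at the 5th and 95th percentiles), the dashed line marks 1.5-fold, and HERPUD1, HSPA5, HYOU1 and SDF2L1 are the points past it.

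Degradation from the ER was led by HERPUD1, a membrane protein of the ubiquitin ligase complex for unfolded ER proteins. HERPUD1 read 9.40 on the control array, 10.28 with WT and 10.86 with delta72, a difference of 1.45 (2.74-fold). Its other probe sets above the filter differed by 1.34 and 1.23, and the dimmest, below the filter at 4.55, by 0.51. Of the 27 members of the degradation list above the filter, 22 were higher and 5 lower, with a median of 0.11. At least 1.5-fold higher were 3 (11.1%, against 1.28% of all genes). The other members past 1.5-fold were SELENOS, a selenoprotein that recruits the p97 ATPase, at 0.76 (SD 0.25 over 2 probe sets), and AUP1, a lipid droplet and ligase adaptor, at 0.70 on its brighter probe set and 0.06 on the other. The channel component DERL2 was at 0.57, while its relatives DERL1 and DERL3 were at -0.02 and 0.05. SEL1L, the ligase scaffold, was at 0.40 and SYVN1, the ligase, at 0.17. The mannosidase-like genes EDEM1 and EDEM3 were at 0.01 and 0.09, and the membrane ligase gene MARCHF6 was lowest, at -0.31.

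The sensors themselves differed little, and the stress factors DDIT3 and ATF3 stood out. DDIT3 (CHOP), which is induced when ER stress persists, read 7.33 on the control array, 8.36 with WT and 8.98 with delta72, a difference of 1.65 (3.14-fold), and 1.71 on its other probe set. ATF3, induced by many stresses, read 10.21 and 10.90, a difference of 0.69 (SD 0.10 over 4 probe sets). XBP1 was at 0.28, but splicing of its transcript was not measured here. The sensors ATF6 and EIF2AK3 were at 0.20 and 0.07, ATF4 at 0.15, and ERN1 lay below the filter at 4.63 on both arrays. Of 21 members above the filter 14 were higher and 7 lower, and 2 (9.52%, against 1.28% of all genes) were past 1.5-fold. The list median of 0.09 ran from 0.06 to 0.15 under the other settings.

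Targets of ATF4 and CHOP did not follow DDIT3 as a group. Of 30 members above the filter 8 were higher and 22 lower, with a median of -0.07 and of -0.20 with WT. The only member past 1.5-fold was PPP1R15A (GADD34), the phosphatase subunit that reverses the block on translation, which read 8.08 and 8.72, a difference of 0.64. Next were SESN2 at 0.56, STC2 at 0.42 and TRIB3, a pseudokinase induced by CHOP, at 0.35. The lowest members were PHGDH, an enzyme of serine synthesis, at -0.41 and the amino acid transporter SLC7A5 at -0.40. ASNS (asparagine synthetase) and PSAT1 were at -0.26, while PSPH, also of serine synthesis, was at 0.01 and the transporters SLC7A1 and SLC3A2 were at 0.06 and -0.01. CHAC1, a common CHOP target, was at -0.03 from 1 dim probe set, which read 6.08 on the control array and 6.06 with delta72. Cytosolic tRNA synthetases, which ATF4 also serves, had 14 of 19 members higher and 0 past 1.5-fold, with a median of 0.03 that was -0.01 after the shift to a common median.

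Genes for entry into the ER, glycosylation and vesicle transport differed less than the chaperones. Of 43 members 30 were higher and 13 lower, and 1 (2.33%, against 1.28% of all genes) was past 1.5-fold. It was SEC11C, a subunit of the signal peptidase, which differed by 0.83 and reached 9.23 with delta72, with a median over its probe sets of 0.50. The oligosaccharyl transferase gene STT3A was at 0.45, the translocon genes SEC63 and SEC62 at 0.42 and 0.35, and the coat protein gene COPA at 0.35. The translocon pore gene SEC61A1 was at 0.23 and KDELR1, a receptor that returns chaperones to the ER, at -0.26. The list median was 0.06, or 0.12 with the median over probe sets and 0.03 after the shift to a common median.

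**Figure D4:**
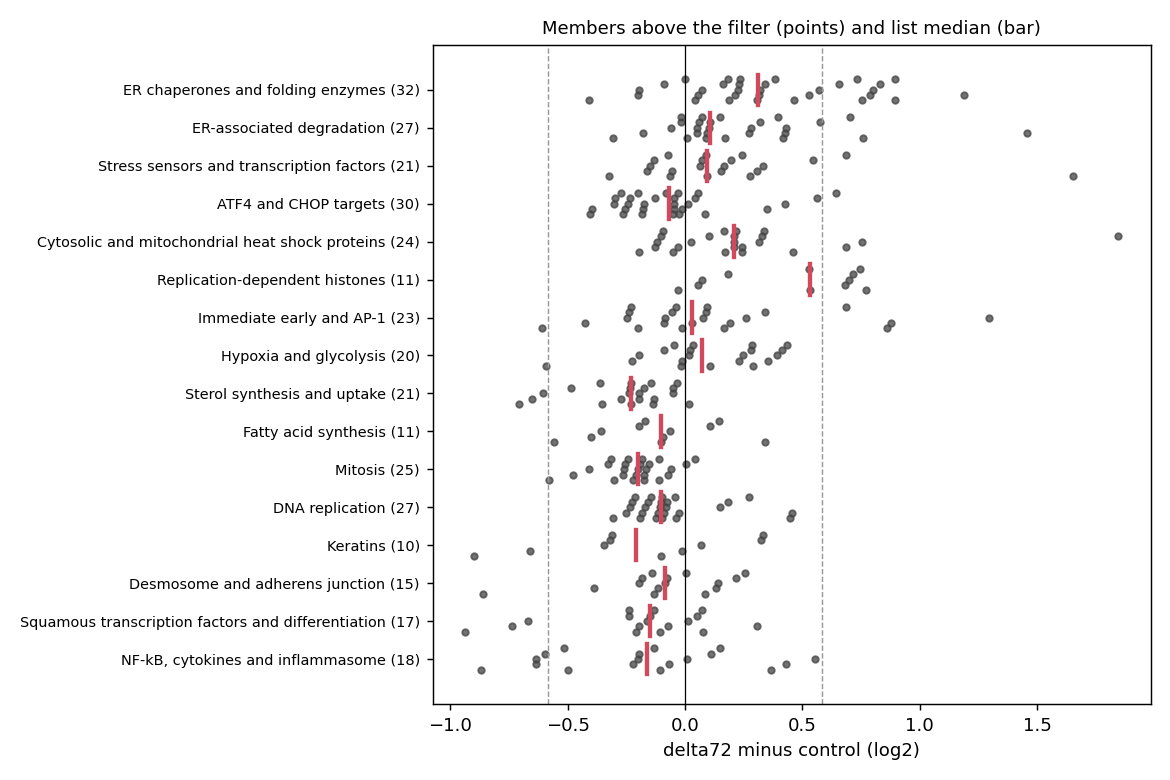
Delta72 minus control difference (log2, horizontal axis) of the members above the filter in 16 gene lists, 1 point a gene, with the number of members in brackets and a bar at the list median; dashed lines mark 1.5-fold each way. ER chaperones (median 0.31) and histones (0.53) lie to the right, and sterol genes (-0.23), mitosis genes (-0.20) and keratins (-0.21) to the left.

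Heat shock proteins of the cytosol were led by HSPA6, a strictly inducible Hsp70. HSPA6 read 5.51 on the control array, close to the filter, 6.60 with WT and 7.35 with delta72, a difference of 1.84 (3.59-fold) on its 1 probe set. HSPB8, a small heat shock protein of selective autophagy, read 8.17 and 8.92, and HSPA1B, an inducible Hsp70, 9.16 and 9.84. These 3 were the members past 1.5-fold (12.5% of 24, against 1.28% of all genes). In all 17 were higher and 7 lower, with a median of 0.21 and of 0.26 with WT. The abundant genes were at or slightly below control, with HSPA8 at -0.03, HSP90AA1 at -0.10, HSP90AB1 at -0.13 and the mitochondrial chaperones HSPD1 and HSPE1 at -0.10 and -0.20. CHORDC1, a cochaperone of Hsp90, was at 0.46 with delta72 and 0.69 with WT. ZFAND2A, an arsenite-inducible gene outside the list, read 8.94 and 9.83.

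The HSPA6 promoter (chr1:161524290-161524539, plus strand, GRCh38.p14) is shown for its heat shock element, the capitals, searched as GAANNTTCNNGAA on both strands.
HSPA6: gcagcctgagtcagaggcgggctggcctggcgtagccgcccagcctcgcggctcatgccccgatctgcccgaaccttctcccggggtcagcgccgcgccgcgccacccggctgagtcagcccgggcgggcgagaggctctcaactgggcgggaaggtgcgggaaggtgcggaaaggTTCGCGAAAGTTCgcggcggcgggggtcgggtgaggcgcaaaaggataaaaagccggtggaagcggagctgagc

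This match starts 74 bases before the start of HSPA6. The same letters were in 52 of the 9954 promoters (0.522%), in 1 of the 133 higher genes, and in 0 of the 43 lower ones, and the median difference of the 52 genes was -0.05. The amino acid response element TGATGNAA was in 2.90% of all promoters and in 10 of 133 higher genes (7.52%), among them HERPUD1, ABCA13, GADD45G, CREB5 and ATF3. The cAMP response element TGACGTCA was in 3.73% of all and in 9 of 133 (6.77%), among them LIG4, IFRD1 and PPP1R15A. In the 43 lower genes each of these was in 1 (2.33%). The sterol element TCACNCCAC was in 1.44% of all promoters and in 1 gene of each group.

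Other genes at least 2-fold higher belonged to no single list. ARRDC4, an alpha-arrestin that regulates glucose transporters, read 7.77 on the control array and 9.32 with delta72, a difference of 1.55 (SD 0.05 over 2 probe sets), and 9.28 with WT. Its relative TXNIP was lower, at -0.24, while ARRDC3 was at 0.60 (SD 0.13 over 3) with delta72 and 0.04 with WT. ODC1, the rate-limiting enzyme of polyamine synthesis, read 9.97 and 11.24, whereas 10 of the 14 polyamine genes were lower, none beyond -0.29 (OAZ2), and the spermidine synthase gene SRM was at 0.34. SYTL2, which tethers Rab27 vesicles, read 5.98 and 7.29, and the vesicle GTPase gene RAB26 9.06 and 8.12, a difference of -0.94. Of 9 arrestin and MLX genes 6 were higher, and of 10 genes of Rab27 exocytosis 3 were higher and 7 lower. In each of these families, then, 1 or 2 members stood apart from the rest.

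Transcription factors and signalling genes are given next. KLF10, a TGF-beta early response factor, read 8.33 and 9.43 (SD 0.04 over 2 probe sets), and GEM, a GTP-binding protein of the immediate early class, 6.25 and 7.54. GADD45G, a stress sensor of the GADD45 family, read 5.59 and 6.59, just past 2-fold. IFRD1, a transcriptional coregulator, lay just under that limit, at 8.69 and 9.68. JUN, the core of the AP-1 factor, read 8.69 and 9.55, and its 4 probe sets differed by 0.72 to 0.93, whereas JUNB was at -0.43, FOS at -0.09 and FOSL1 at -0.24. Of 23 immediate early and AP-1 genes 12 were higher and 11 lower. Past 1.5-fold higher were 4 (17.4%, against 1.28% of all genes), GEM, NR4A3, JUN and ATF3. NR4A3 read 5.09 on the control array, under the filter value, and 5.97 with delta72, so it was kept only through the arrays of cells given LOXL2. The lower one past 1.5-fold was DUSP6, the phosphatase that damps ERK, which read 8.29 and 7.68 and was lower on 4 of 4 probe sets (SD 0.07).

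The remaining genes past 2-fold higher read from 4.80 to 7.22 on the control array, where the median of the kept genes was 7.95. LIG4, the DNA ligase of end joining, read 5.95 and 7.01, and DHRS2, a mitochondrial reductase, 7.22 and 8.45. The transporter gene ABCA13 read 4.80 on the control array, under the filter value, and 6.21 with delta72. ZSCAN12 was also under it, at 5.03 against 6.05, and the median of the differences of its probe sets was 0.34, while the median level of its probe sets on each array was lower with delta72. These genes were as high or higher with WT, with ABCA13 at 6.26 and ZSCAN12 at 6.24. Just under 2-fold were GRIP1 at 0.97 and the zinc finger gene ZNF425 at 0.97, the latter with a median of 0.48 over its probe sets. Among secreted proteins, the iron carrier LCN2 read 5.82 on the control array, 6.18 with WT and 6.75 with delta72, the matrix proteoglycan SPOCK1 5.86 and 6.81, and the cytokine IL11 6.02 and 6.94, though its 3 probe sets ran from 0.24 to 0.92.

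Replication-dependent histone genes, whose transcripts mostly lack polyA tails, were the list with the highest median, 0.53. Of 11 members above the filter 10 were higher. Past 1.5-fold were 5 (45.5%, against 1.28% of all genes). These were the core histones H2BC4 (0.77), H2BC21 (0.74), H2AC6 (0.70) and H2BC5 (0.68) and the linker histone H1-2 (0.72), H2BC5 with an SD of 0.08 over 3 probe sets. Probe sets of a gene often disagreed, with H2BC4 from 0.13 to 0.77, and when the median level of a gene's probe sets was taken on each array the list median was 0.13 and H2BC21 lay below control. H2AC11 and H2BC11 were at 0.53, and the brightest members, H4C3 at 13.39 and H2BC12 at 11.54 on the control array, were at 0.18 and -0.03. The clustered histone genes are near-identical copies, so a probe set may read several of them.

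Cell division genes were slightly lower. Of 25 mitosis genes 23 were lower and 2 higher, with a median of -0.20, and 0 reached 1.5-fold. The cyclin genes CCNA2 at -0.58 (SD 0.06 over 2 probe sets) and CCNB2 at -0.41 were among the lowest, with the spindle motor gene KIF20A at -0.48, followed by AURKA at -0.33 and CDC25C at -0.31. MKI67, the proliferation marker Ki-67, was at -0.15, CDK1 at -0.26, and CDC20 at 0.04. Of 27 DNA replication genes 22 were lower, with a median of -0.10 and of -0.01 with WT, but the G1/S genes CDC6 at 0.46 and CCNE2 at 0.45 were higher. A second probe set of CDC6 gave 0.00. In these bulk cultures, fewer dividing cells and less RNA per cell cannot be told apart. The mitosis median of -0.20 compares with 0 over all genes. Spiked controls had medians of -0.24 for BioB, BioC and BioD, -0.10 for cre and -0.06 for the polyA spike-ins. Whether the shift of these controls bears on the mitosis genes was not tested. Of 15 p53 targets 9 were higher and 6 lower, with CDKN1A (p21) at 0.30, GADD45A at 0.33, TIGAR, a regulator of glycolysis, at 0.83 (SD 0.11 over 2) and the death receptor gene FAS at -0.66 on a pair of probe sets that disagreed (SD 0.52).

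**Figure D5:**
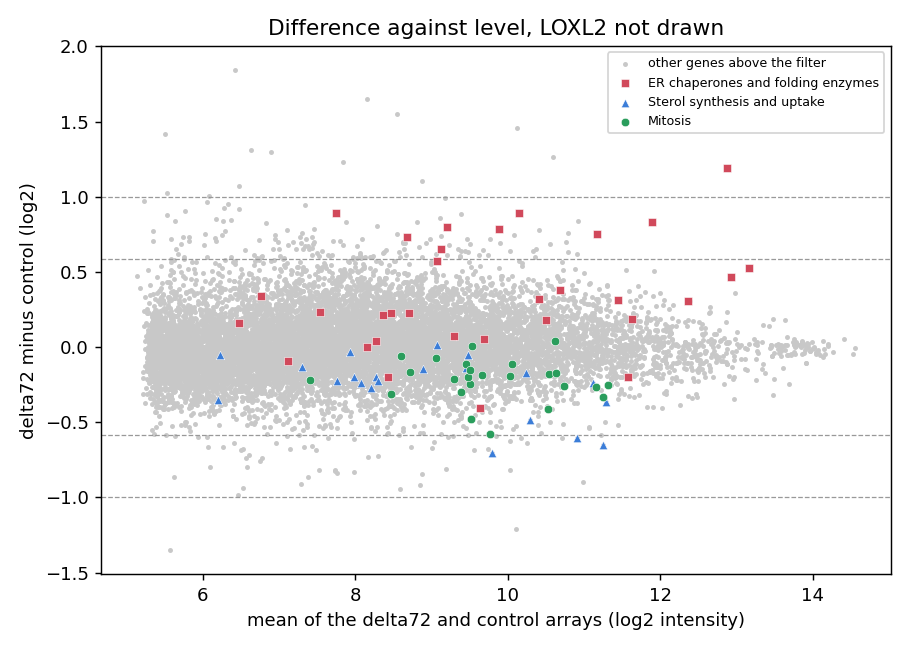
Delta72 minus control difference (log2, vertical axis) against the mean of both arrays (log2 intensity, horizontal axis) for the genes above the filter except LOXL2, with squares for ER chaperones, triangles for sterol genes and circles for mitosis genes; dashed lines mark 1.5-fold and 2-fold. HSPA5 is the square past 2-fold, and sterol and mitosis genes lie mostly under 0 across the range of levels.

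Sterol synthesis genes were lower almost throughout. Of 21 members above the filter 20 were lower, with a median of -0.23, and 3 (14.3%) were at least 1.5-fold lower, against 0.499% of all genes. SQLE, the squalene epoxidase, read 10.15 on the control array and 9.45 with delta72, and its 4 probe sets differed by -0.74 to -0.51. The methylsterol oxidase gene MSMO1 read 11.58 and 10.92 (-0.90 to -0.65 over 3 probe sets), and FDPS, the farnesyl diphosphate synthase, 11.21 and 10.61. HMGCS1, the synthase at the head of the pathway, was at -0.49, the feedback regulator INSIG1 at -0.36, and the transcription factors SREBF2 and SREBF1 at -0.24 and -0.23. SCAP, the SREBP escort protein gene, was the member not lower, at 0.02. The WT array gave a median of -0.22 against the same control. In fatty acid synthesis 8 of 11 were lower and 0 were past 1.5-fold, with ELOVL6 at -0.56, the desaturase SCD at -0.40 and FASN at -0.36, while the desaturase FADS1 was at 0.34.

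Some squamous genes were among the lowest on the delta72 array, while the markers SFN, PKP1 and DSG3 were nearer control, at -0.16, -0.11 and 0.22. KRT15, a keratin of basal cells, read 11.43 on the control array, 10.43 with WT and 10.54 with delta72, a difference of -0.90. KRT14 read 7.76 and 7.10. KRT15 and KRT14 each had 1 probe set above the filter. KRT5, the partner of KRT14, was at -0.35 (SD 0.10 over 2 probe sets) with delta72 and -0.09 with WT. The simple keratins KRT8 and KRT18, bright at 12.24 and 13.64, were at -0.31 and -0.32, while KRT10, a keratin of upper layers, was at 0.33. Of 10 keratins 7 were lower, with a median of -0.21, or -0.31 with the 60th percentile filter. Past 1.5-fold lower were 2 of the 10 (20%), against 0.499% of all genes. The members above control were KRT10, KRT7 at 0.32 and KRT80 at 0.07.

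Junction genes were mostly near control, with 9 of 15 lower. DSC3, a desmosomal cadherin of basal cells, read 7.81 and 6.95 (-0.86 to -0.19 over 3 probe sets), whereas its relatives DSG3 and DSC2 were at 0.22 and 0.13 and desmoplakin, DSP, at 0.09. CDH1 (E-cadherin) was at 0.00 from a level of 11.91. Among hemidesmosome and integrin genes 8 of 13 were lower, with ITGB8 at -0.68 on its brightest probe set and a median of -0.16 over all of them, ITGB5 at -0.53 and ITGB4, the hemidesmosome integrin, at -0.36 (SD 0.08 over 8 probe sets), and LAMB3 was at 0.33. Among the 17 factors and differentiation genes 12 were lower, with a median of -0.15. Past 1.5-fold lower were 3 (17.6%, against 0.499% of all genes), AQP3, EHF and TFAP2A. TFAP2A, a factor of epidermal genes, read 9.34 and 8.67, with -0.80 to -0.36 over 3 probe sets. The channel gene AQP3 at -0.94 and the ETS factor gene EHF at -0.74 each rested on 1 probe set, and the medians of the differences of all their probe sets were -0.18 and -0.06. The median level of the EHF probe sets on each array was higher with delta72. SOX2 was at -0.21, KLF5 at -0.07 and KLF4 at 0.31.

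Most genes of the NF-kB, cytokine and inflammasome list were lower. CASP1, the inflammatory caspase that matures IL1B, read 6.06 on the control array and 5.20 with delta72, and CASP4 9.52 and 8.92, with -0.80 to -0.45 over 6 probe sets. IL1B read 10.57 and 9.93, IL1A 11.70 and 11.19, and IL18 9.41 and 8.91. In contrast the chemokine CXCL8 was at 0.55 (SD 0.05 over 3 probe sets), against 0.12 with WT, and IL6 at 0.43 (SD 0.36 over 2). Of 18 members 12 were lower, against 49.8% of all genes, and 4 (22.2%) were past 1.5-fold lower, against 0.499%. The 4 were CASP1, IL1B, TNFAIP2 and CASP4. Outside the list, the protease inhibitor genes SERPINB1 at -0.81, SLPI at -0.80, SERPINB13 at -0.82 (SD 0.34 over 3) and CSTA at -0.61 were named because they were among the lower genes. So IL1A, IL1B, IL18, CASP1 and CASP4 lay below control and CXCL8 and IL6 above it, while CXCL1 and CXCL2 were at -0.11 and 0.15. IL1A, IL1B and IL18 each rested on 1 probe set above the filter.

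The 2 genes at least 2-fold lower were GNE and PHLDA1. GNE, the first enzyme of sialic acid synthesis, read 6.25 on the control array, 5.09 with WT and 4.90 with delta72, a difference of -1.35. Its other probe sets lay below the filter, at 3.74 on the control array, and differed by -0.21 and -0.12. PHLDA1, a PH domain gene induced by growth factor signalling, read 10.71, 9.47 and 9.50 in the same order, a difference of -1.21, and its other probe sets differed by -1.09, -0.80 and -0.65 (SD 0.26 over 4). ID1, a BMP target that inhibits helix-loop-helix factors, was lower on 3 of 3 probe sets, at 9.90 against 9.21 on the brightest. SKP2, which targets p27 for degradation, read 8.53 and 7.80 on its brightest probe set, and the acute phase glycoprotein gene LRG1 differed by -0.83 (SD 0.04 over 2 probe sets). Of 6 genes of the EGFR family 5 were lower. EGFR was at -0.30 (SD 0.13 over 6 probe sets), against -0.67 with WT, its relative ERBB3 at -0.38 and the ligand genes NRG1 and HBEGF at -0.51 and 0.51.

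Other lysyl oxidases and matrix genes were also read, since LOXL2 acts on matrix. LOXL4 read 6.95 and 5.97, a difference of -0.99 just inside 2-fold, and its second probe set gave -0.43. LOXL3, LOX and LOXL1 were at -0.36, -0.14 and 0.10. Of 15 collagen and matrix genes 7 were higher and 8 lower, and 0 reached 1.5-fold, with TNC (tenascin C) at 0.53, the collagen prolyl hydroxylase P4HA2 at 0.53, COL5A2 at 0.45, COL7A1 at 0.39 and LAMC1 at -0.31. FN1 (fibronectin) was at 0.07. Of 7 mesenchymal factors above the filter 4 were higher and 0 reached 1.5-fold, with SNAI2 (Slug) at 0.54, TGFBI at 0.35, VIM (vimentin) at 0.17, CDH2 (N-cadherin) at -0.02 and MMP2 at -0.33.

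Hypoxia genes had a median of 0.07 with delta72 and of -0.23 with WT, each read against the same control. With delta72 13 of 20 members were higher, and the median was 0.01 with the median over probe sets, and with WT 17 of 20 were lower. HILPDA, a lipid droplet protein induced by hypoxia, read 11.25 on the control array, 11.36 with delta72 and 10.17 with WT. ANKRD37 read 9.98, 10.41 and 9.12 in that order, and NDRG1 12.54, 12.77 and 12.10. ALDOC, a glycolytic aldolase, was low on both, at -0.59 with delta72 (SD 0.08 over 5 probe sets) and -1.08 with WT. The glycolytic genes LDHA, ALDOA and ENO1 lay within 0.04 of control with delta72. Other members lay farther from control with delta72 than with WT, such as BNIP3 at 0.41 and -0.28 (SD 0.34 over 2 probe sets with delta72), HK2 at 0.35 and -0.16, and PFKFB4 at 0.39 and 0.02.

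Of the other stress pathways, interferon genes and NRF2 targets were mixed, whereas 17 of the 24 heat shock genes described above were higher. Of 19 interferon genes 12 were lower, with ISG20 at 0.61 the member past 1.5-fold, ISG15 at 0.37 and IFIH1 at -0.45. Of 16 NRF2 targets 10 were lower, among them NQO1 at -0.30 (both probe sets alike) and TKT at -0.39 (SD 0.04 over 3), whereas AKR1B10 was at 0.72 (SD 0.10 over 2). HMOX1 was at 0.04. The autophagy gene MAP1LC3B was at 0.74 (SD 0.12 over 4), and IGFBP3, a binding protein of growth factors, at 0.75. In total the lists covered 35 of the 157 genes past 1.5-fold higher and 19 of the 61 lower, so most genes past that limit were in no list.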

How the data were processed

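The authors deposited 1 table of log2 intensities for 49395 probe sets on 3 Affymetrix arrays, made from 100 ng of total RNA per the labels' protocols. Partek and Affymetrix Expression Console were used, per the submitters' processing notes, but the normalization is not given in the sources used here. Values were taken as log2 from the deposited range, 2.07 to 14.56. Array medians were 5.95 (control), 5.93 (WT) and 5.94 (delta72), so a change common to most genes could not be seen.

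Of the probe sets, 102 were Affymetrix controls, 44988 carried 1 gene symbol, 1832 several and 2473 were not listed. Genes were named only from the platform annotation, with 44961 Entrez identifiers found in RefSeq and 0 symbols updated. The brightest probe set by the mean of 3 arrays stood for a gene, filtered at the 40th percentile (5.27). Differences were computed with Python 3.11.15, numpy 2.4.6 and pandas 2.3.3, and counting was tested on simulated data. No significance test was possible, and having 1 array a condition limits the precision. The 29 gene lists (605 genes, 518 above the filter) and the genes compared were chosen with earlier results of these data known. Listed genes without a single-symbol probe set were not analysed here.

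Genes were named by a rule: the lysyl oxidases, all genes at least 2-fold different, the 25 highest and 25 lowest whose probe-set median had the same sign, up to 8 members of each list with the largest difference and its key members, genes with 3 or more probe sets past 1.5-fold the same way, and those next to the filter and fold limits. Other genes named, such as FICD, SERP1, NUCB1 and SYNPO for their promoters, were chosen after their values were seen. Promoters came from the RefSeq table (GRCh38.p14). Alternatives were array shift to a common median, quantile normalization, lowess, the median over probe sets, no filter, a filter at the 60th percentile, and choice of probe sets from the 2 compared arrays.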

Additional observations from a re-analysis of the deposited data

Results flagged for a closer look

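Probe sets that name no single gene were not used in the comparison, and 6 of the 2387 above the filter were at least 2-fold higher on the delta72 array than on the control array, while 0 were at least 2-fold lower. The largest, listed for 2 genes of the inducible Hsp70 family and so assigned to neither, read 4.33 on the control array, 7.22 with WT and 7.91 with delta72, a difference of 3.59. Its control value lay below the filter value. A second, also listed for 2 genes, read 4.11 and 5.97, a difference of 1.87. A probe set not listed in the annotation read 4.98 and 6.58, a difference of 1.59, and another read 5.88 and 6.97, a difference of 1.09. The last ones, each listed for 2 genes, differed by 1.10, from 6.63, and by 1.02, from 5.15.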

How the results depend on the processing

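Over the 7 alternatives, 11 to 19 genes were at least 2-fold higher, 122 to 183 at least 1.5-fold higher and 42 to 85 at least 1.5-fold lower. The count at least 2-fold lower, 2 as reported, was 0 with the median level over a gene's probe sets on each array and 1 with the 60th percentile filter, which leaves out 1 of them by construction, and 3 after the shift to a common median. With the median over probe sets, 81 of the 157 higher and 27 of the 61 lower genes remained past 1.5-fold. The EHF difference was then 0.16, the H2BC21 difference -0.20 and the ZSCAN12 difference -0.22, each of opposite sign. This setting takes the median level on each array before subtracting. The medians of the probe-set differences of EHF and ZSCAN12, given above, kept the reported sign. With the median level over probe sets the medians of the polyamine, Rab27, arrestin, lysyl oxidase and collagen lists also changed sign, to between -0.01 and 0.06. The shift to a common median turned the tRNA synthetase, immediate early and p53 medians, which stayed within 0.01 of 0. Of 275 named genes above the filter (231 at the 60th percentile), 15 changed sign with the median over probe sets, the 3 given above among them being past 1.5-fold as reported. The shift to a common median turned 1, lowess 2 and probe sets chosen from the compared arrays 1, none larger than 0.10 as reported, and quantile normalization, no filter and the 60th percentile filter turned 0.

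No paired analysis was possible because each condition has 1 array. The planned list of proteins with an ER retention signal was not run, since no protein table was used here. Dim probe sets near the filter lie in the range of the background probe sets, which read from 2.29 to 10.84 on the control array with their G and C content. How far this compresses their differences was not tested.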

Other observations

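Genes named ZNF with a number, mostly KRAB zinc finger repressors, lay above control as a class. Of 291 above the filter 193 were higher and 97 lower, with a median of 0.10. At least 1.5-fold higher were 14 (4.81%, against 1.28% of all genes), and 0 were that much lower. With WT the median was 0.15 against the same control array. The class was noticed in these data.

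Among the 5900 genes below the filter, 4 were at least 2-fold higher with delta72 and 0 that much lower. CARD9, an adaptor of innate immunity, read 4.04 and 5.52 on its brightest probe set, while the median difference over its 3 probe sets was -0.17. ICA1L was at 1.21, with a median of 0.08 over 4 probe sets, MEX3B at 1.15, with a median of 0.59 over 2, and BAMBI, a pseudoreceptor of TGF-beta signalling, at 1.01 on 1 probe set.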
